A study of Homo sapiens with 8 samples.

Results

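The nuclear genes that encode the subunits of the mitochondrial respiratory complexes and ATP synthase were followed in HEK293T, a line derived from human embryonic kidney. Members were chosen by gene symbol: the NDUFA, NDUFB, NDUFC, NDUFS and NDUFV subunits of complex I, SDHA to SDHD of complex II, the UQCR genes and CYC1 of complex III, the COX4 to COX8 subunits of complex IV, and the genes whose current symbol starts with ATP5. Assembly factors, pseudogenes and the read-through gene ATP5MF-PTCD1 were left out. This gave 87 of the 25934 named genes, with 170 of the 53216 transcripts. Complex I had 37 member genes, complex II 4, complex III 10, complex IV 17 and ATP synthase (complex V) 19.

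The 8 libraries fell into 3 groups. There were 2 libraries of wild-type (WT) total RNA depleted of ribosomal RNA with RiboMinus, 3 of WT RNA enriched by NAD-Capture, and 3 of NAD-Capture RNA from HEK293T cells labelled DXO-KO. NAD-Capture exchanges the nicotinamide of an NAD cap for an alkyne with an ADP-ribosyl cyclase, clicks biotin onto it and recovers the RNA on streptavidin. DXO is an enzyme that removes NAD caps from RNA, and the series title puts the question of NAD-capped RNA in human cells and of its removal by DXO. The labels give no more on how many clones the DXO-KO cells came from. The captured RNA was turned into libraries with a SMARTer low-input kit and the RiboMinus RNA with a TruSeq kit, so the effect of capture and that of the kit cannot be told apart. A capture control without the cyclase was not analysed here, so the level of RNA that binds the beads without a cap is not given.

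Complexes I to IV pass electrons from NADH and succinate to oxygen, and complexes I, III and IV pump protons across the inner mitochondrial membrane as they do so. ATP synthase lets the protons flow back and makes ATP. A few core subunits of complexes I, III, IV and V come from mitochondrial DNA, and all others are translated in the cytosol from nuclear mRNAs like those described here. Many of these mRNAs are short and abundant in every tissue, and the transcription factors NRF1 and GABP are known to act on many of their promoters. An NAD cap can be placed on an RNA when the polymerase starts with NAD in place of ATP, so the first base of a transcript is of interest for this assay.

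Promoter windows of 300 bases, from 250 before the start to 50 after it, were taken from RefSeq (build GRCh38.p14) for 70 of the 87 genes, which had 83 windows. The core NRF1 motif CGCATGCG, which reads the same on both strands, was found in 11 member windows (13.3%) and in 2.02% of the 35116 windows of all genes. The core of the GABP motif, CCGGAAG on either strand, was found in 22 member windows (26.5%) and in 10.3% of all windows. Both motifs stood in 4 member windows. The windows of ATP5ME (chr4:674257-674426, minus strand) and SDHD (chr11:112086723-112086892, plus strand) are shown from 150 bases before the start, because they hold both motifs; the capitals mark the motifs and the first transcribed base.

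ATP5ME: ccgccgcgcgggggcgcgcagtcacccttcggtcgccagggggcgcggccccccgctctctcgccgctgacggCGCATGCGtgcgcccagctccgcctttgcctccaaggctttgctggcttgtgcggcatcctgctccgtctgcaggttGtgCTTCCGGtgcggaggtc
SDHD: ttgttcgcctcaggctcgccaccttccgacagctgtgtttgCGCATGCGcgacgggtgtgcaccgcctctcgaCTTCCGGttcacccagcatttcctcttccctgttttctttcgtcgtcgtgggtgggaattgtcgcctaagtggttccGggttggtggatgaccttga

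ATP5ME encodes the e subunit of ATP synthase and SDHD a membrane anchor of succinate dehydrogenase. In ATP5ME the GABP core lies 3 to 9 bases after the start, and the NRF1 core 77 to 70 bases before it. In SDHD the NRF1 core lies 109 to 102 bases before the start and the GABP core 77 to 71 bases before it. A match describes the letters of the window and is no evidence of binding.

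The annotated first base was A in 29 of the 83 member windows (34.9%), G in 35 (42.2%) and C in 17 (20.5%). Over all windows, A was the first base in 44.4%, G in 33.6% and C in 14.7%. The start of 4 members that were lower and 4 that were higher in WT NAD-Capture than in RiboMinus RNA follows with 15 bases on either side, with the first base in capitals, since the assay reads the cap on that base. The 4 higher ones are examples and not the largest changes. NDUFA12 (log2 difference 1.53, first base G) and UQCR11 (1.34, A) changed more than COX7C (1.02, C) and are not shown. The regions are, for the lower members, chr17:48892772-48892802, plus strand for ATP5MC1, chr19:29213136-29213166, minus strand for UQCRFS1, chr15:74938058-74938088, minus strand for COX5A and chr3:48609631-48609661, minus strand for UQCRC1. For the higher members they are chr19:55354704-55354734, minus strand for COX6B2, chr14:92121691-92121721, minus strand for NDUFB1, chr10:103396460-103396490, minus strand for ATP5MK and chr5:86617926-86617956, plus strand for COX7C.

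ATP5MC1: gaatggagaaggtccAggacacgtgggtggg
UQCRFS1: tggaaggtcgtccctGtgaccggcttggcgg
COX5A: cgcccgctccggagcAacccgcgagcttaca
UQCRC1: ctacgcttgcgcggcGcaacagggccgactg
COX6B2: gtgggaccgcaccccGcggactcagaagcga
NDUFB1: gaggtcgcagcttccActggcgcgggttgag
ATP5MK: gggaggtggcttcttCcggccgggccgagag
COX7C: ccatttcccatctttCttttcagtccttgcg

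Among members with a single window that passed the test between WT NAD-Capture and RiboMinus, the first base was A in 4 of 9 lower members and in 2 of 8 higher ones. The median log2 difference between these groups was -0.48 over the 19 tested members that start with A, -0.36 over the 12 with C and -0.19 over the 27 with G. Over all tested genes with a single window it was 0.27 for A, 0.34 for C, -0.07 for G and 1.14 for T (169 genes). No tested member with a single window started with T. So members starting with A were not higher in captured RNA than members starting with G or C in these medians, which carry no test.

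Levels are given as FPKM, fragments scaled to transcript length and to the mapped fragments of a library, summed over the transcripts of a gene. The authors deposited no read counts, and the depth was estimated from the step between low FPKM values. It was equivalent to about 10668800 and 8723260 fragments in the RiboMinus libraries, 165096 to 248248 in the WT NAD-Capture libraries, and 803456, 137599 and 80493 in replicates 1, 2 and 3 labelled DXO-KO. A member with 1 transcript had a median of 897 and 758 fragments in the RiboMinus libraries, 11 to 13 in the WT NAD-Capture libraries and 44, 12 and 9 in those labelled DXO-KO. The median SD of a member between replicates was 0.06 on the log2(FPKM + 1) scale in RiboMinus, 0.40 in WT NAD-Capture and 0.50 in DXO-KO-labelled capture. The labels do not say whether replicates came from separate cultures, so p-values measure the spread between these libraries, which may be technical.

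DXO, the targeted gene, was not lower in the captured RNA labelled DXO-KO. DXO stood at 11.2 and 14.3 FPKM in RiboMinus, at 33.2, 17.2 and 27.1 in WT NAD-Capture, and at 128, 61.6 and 71.7 in DXO-KO-labelled capture (log2 difference between the capture groups 1.69, SE 0.39, limma adjusted p = 0.114). Cells labelled DXO-KO were measured only after capture, so more DXO RNA and more capture of it cannot be told apart. An RNA level does not show whether the protein is made, and directions below are those of the libraries as labelled. Of 7 HEK293T markers, all were above 0 in RiboMinus, with a summed level of 64.7 to 70.2 FPKM there and 104 to 166 in the capture libraries. Markers of other cell types (16 genes) summed to 2.76 to 3.75 FPKM in RiboMinus, 22.3 to 44.6 in WT NAD-Capture and 12.4 to 23.3 in DXO-KO-labelled capture, with PTPRC, a pan-leukocyte marker, and the globins HBB and HBG1 at 0 in all 8. Of these markers 7 were tested between WT NAD-Capture and RiboMinus, and all 7 had a log2 difference above 0 (median 1.88). COL1A1, a collagen of fibroblasts, alone of the 7 had a RiboMinus mean of at least 1 FPKM. It was called higher (2.01, limma adjusted p = 0.00881). The others met the filter, a mean of at least 1 FPKM, only through the captured libraries. A difference above 0 was thus all but fixed for them, and their values are a description. TNNT2, the cardiac troponin T (2.66, called higher), and MYH7, a cardiac myosin, were at 0 in both RiboMinus libraries. MYH7 and VWF, an endothelial marker, did not pass, although their groups did not overlap. HBA1 and COL3A1 went the other way but were not tested. They had 1.30 and 0.26 FPKM, and 0.27 and 0.53, in RiboMinus and 0 in every WT NAD-Capture library. Whether these markers have a part in the differences below was not tested.

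In RiboMinus RNA the subunit mRNAs together held 11733 and 11399 FPKM, and the leading ones came from ATP synthase and complex IV. The highest level belonged to ATP5F1B, the catalytic beta subunit of ATP synthase, at 597 and 561 FPKM. COX7B followed with 458 and 436, ATP5ME with 386 and 357, and COX8A with 329 and 346. UQCRH, the hinge subunit of complex III, had 342 and 315, ATP5PO, the stalk subunit OSCP, 317 and 306, COX7C 315 and 300, and UQCRHL 325 and 289. Neighbours in this order from COX8A to UQCRHL overlapped in their 2 libraries. UQCRHL is a retrocopy nearly identical to UQCRH, so the split of reads between them is uncertain.

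Among the catalytic and central subunits of complex I, NDUFS1, which holds iron-sulfur clusters, had 47.9 and 46.5 FPKM and NDUFV1, which binds NADH and flavin, 68.8 and 78.2. NDUFAB1, the acyl carrier protein of the complex, had 147 and 143. Of the 4 subunits of complex II, SDHB, the iron-sulfur subunit, had 116 and 115 FPKM, above the median member (96.8 and 105). The others lay below that median: SDHD had 58.2 and 56.5, SDHA, the flavoprotein, 55.9 and 55.3, and SDHC 14.2 and 15.2. The median member of complex II had 57.1 and 55.9 FPKM, against 161 and 167 for ATP synthase and 144 and 152 for complex IV.

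Tissue-restricted paralogs were at or near 0 in RiboMinus. COX6A2 and COX7B2 were listed at 0 in all 8 libraries. COX4I2, COX7A1 and COX8C reached at most 0.524 FPKM in RiboMinus and were at 0 in every WT NAD-Capture library. Their widely expressed partners COX4I1, COX6A1, COX7A2, COX7B and COX8A had at least 144 FPKM in both RiboMinus libraries. COX7A1, a muscle form, was at 22.4 FPKM in replicate 3 labelled DXO-KO, which is an estimated 1 fragment in that shallow library, and at 0 in the other two. COX6B2, a testis form, had at most 0.233 FPKM in RiboMinus but 20.4 to 45.6 in WT NAD-Capture. In all, 78 members were above 0 in all 8 libraries.

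WT NAD-Capture and WT RiboMinus RNA were compared to ask which subunit mRNAs are over- or under-represented among captured RNA. In bulk RNA, fewer cells with an mRNA and less of it in each cell cannot be told apart. Members moved in both directions. On the higher side, COX6B2 and ATP5MGL had the largest differences, from RiboMinus levels near 0. Of the members with a RiboMinus mean of at least 1 FPKM, COX6C, NDUFB1, UQCRB, ATP5MK and ATP5PF followed at 3.43 to 8.78 times their RiboMinus level. On the lower side, ATP5MC1 of ATP synthase was at 0.159 times, UQCRFS1 of complex III at 0.247, COX5A of complex IV at 0.257 and CYC1 of complex III at 0.308. With limma on log2(FPKM + 1) and Benjamini-Hochberg adjustment over all 17016 tested genes, 26 of the 82 tested members had an adjusted p under 0.05. Of these, 15 were higher in captured RNA (18.3% of tested members, where 16.8% of all tested genes were called higher) and 11 lower (13.4%, where 7.99% were called lower). With all calls counted, the share called higher was near that of all genes. COX6B2 and ATP5MGL are among the 15, but their RiboMinus mean was under 1 FPKM. They met the filter, a mean of at least 1 FPKM, only through the captured libraries, so their calls are a description. Of the 2851 genes called higher, 1805 were of this kind. This leaves 13 of the 82 tested members and 1046 of the 17016 tested genes. The shares called higher are thus near each other only with these calls counted. Uncalled genes under 1 FPKM in RiboMinus were not taken out of the totals, and the shares were not tested. The median log2 difference was -0.24 over the members and 0.21 over all tested genes.

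Each of the 26 calls rested on both RiboMinus libraries: leaving out either replicate left 0 members called, with 22 and 24 at an unadjusted p under 0.05, although all 26 kept their direction. Over all genes the calls fell likewise, from 4210 to 20 and 30. Centring each library on its median gene moved the median of all genes from 0.21 to -0.26 and that of the members from -0.24 to -0.72, and 10 members were then called higher and 25 lower. The share of higher calls over all genes fell from 67.7% to 41.9% with it. The place of the members relative to all genes turned with the filter. Among genes with a mean of at least 10 FPKM the median was -0.25 over the members and -0.34 over all, and with quantile normalization it was -0.23 and -0.20.

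**Figure D1:**
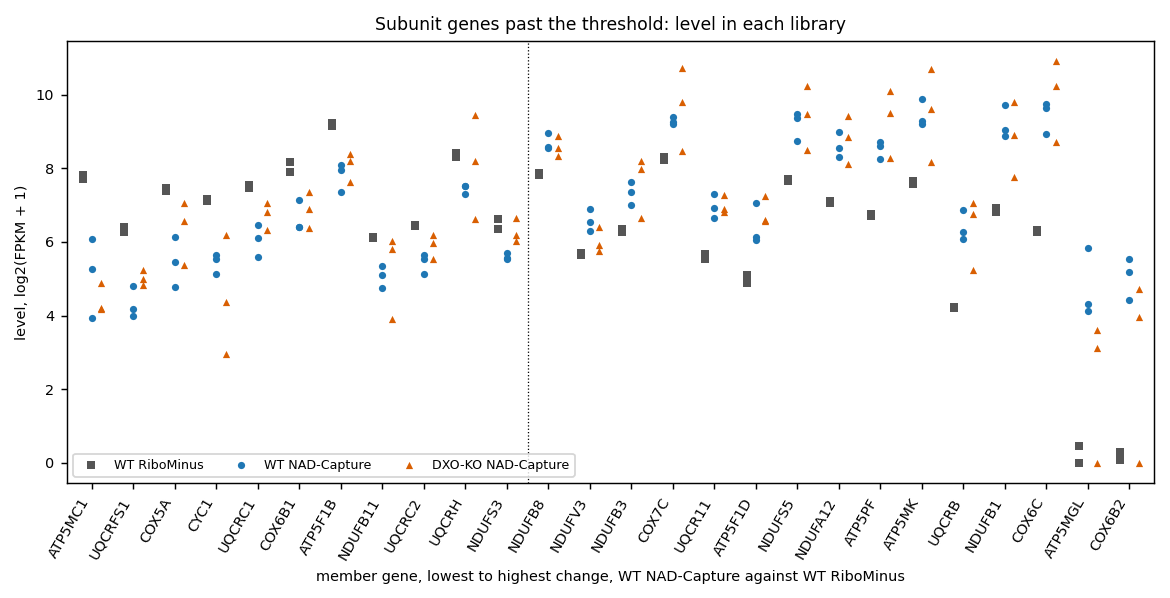
Level of the 26 member genes that passed the threshold between WT NAD-Capture and WT RiboMinus, as log2(FPKM + 1) on the vertical axis, with 1 point for each library and 1 colour and marker for each group; genes run from the lowest to the highest change, and the dotted line parts the 11 lower from the 15 higher members. The squares of the 2 RiboMinus libraries nearly coincide for most genes, while the capture libraries spread over 1 log2 unit or more in several.

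In complex III, 7 of 10 members passed the test, 5 lower and 2 higher. UQCRFS1, the Rieske iron-sulfur protein, had 84.4 and 76.0 FPKM in RiboMinus and 14.8, 17.2 and 26.7 in WT NAD-Capture (log2 difference -2.02, SE 0.29, adjusted p = 0.00898). CYC1, cytochrome c1, had 138 and 141 FPKM in RiboMinus and 49.0, 45.5 and 34.0 in WT NAD-Capture (-1.70, SE 0.22, adjusted p = 0.00667). UQCRC1, a core protein of the matrix side, had 186 and 174 FPKM against 47.1, 67.4 and 86.8 (-1.45, SE 0.29, adjusted p = 0.0214). In all 3 genes every captured library lay below both RiboMinus libraries. The other core protein, UQCRC2, fell from 87.4 and 85.4 to 49.0, 45.0 and 33.9 FPKM (-1.02), and UQCRH from 342 and 315 to 183, 156 and 182 (-0.92).

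UQCRB, which binds near the quinone site of complex III, went the other way. It had 17.9 and 17.4 FPKM in RiboMinus and 115, 66.3 and 76.8 in WT NAD-Capture (2.18, SE 0.28, adjusted p = 0.00657). UQCR11, the smallest subunit, had 45.7 and 50.1 FPKM against 98.6, 120 and 156 (1.34, adjusted p = 0.0166). UQCRHL, at 325 and 289 FPKM in RiboMinus and 458 to 469 in WT NAD-Capture, did not pass (adjusted p = 0.0524), although its groups did not overlap. UQCRH and UQCRHL thus had differences of opposite sign, with reads that cannot be told apart with certainty. UQCRB has an annotated antisense gene, and reads of unstated strand may come from either.

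In complex IV, 3 of 12 tested members were higher and 2 lower. COX6C had 78.9 and 76.6 FPKM in RiboMinus and 855, 799 and 482 in WT NAD-Capture (3.13, SE 0.29, adjusted p = 0.00325), estimated at 756 and 600 fragments in the deep RiboMinus libraries and 108 to 148 in the captured ones. Every captured library lay above both RiboMinus libraries. COX7C, with 315 and 300 FPKM against 615, 590 and 670, was 2.03 times as high (adjusted p = 0.0130); a small nucleolar RNA gene, SNORD138, lies within it.

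COX6B2, the testis form of subunit VIb, had 0.064 and 0.233 FPKM in RiboMinus and 45.6, 20.4 and 35.3 in WT NAD-Capture (4.85). It met the filter only through the captured libraries, so its call is a description and no p is given. Its widely expressed partner COX6B1 had 289 and 238 FPKM in RiboMinus and 84.5, 139 and 83.0 in WT NAD-Capture (-1.39, SE 0.29, adjusted p = 0.0242). COX6B1 stayed above COX6B2 in all 8 libraries. The level of COX6B2 in RiboMinus rested on an estimated 4 fragments in the 2 libraries together. That in WT NAD-Capture rested on an estimated 13, 5 and 13 fragments in replicates 1, 2 and 3. COX5A, a matrix-side subunit, had 175 and 164 FPKM against 42.9, 69.5 and 26.3 (-1.96, SE 0.41, adjusted p = 0.0249). COX4I1, the partner of COX5A in early assembly, and COX5B did not pass, with log2 differences of -0.43 and 0.18.

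In ATP synthase, 4 of 19 members were higher and 2 lower. ATP5MC1, which encodes the same mature c-ring subunit as ATP5MC2 and ATP5MC3, had 223 and 206 FPKM in RiboMinus and 37.4, 14.4 and 66.6 in WT NAD-Capture (-2.66, SE 0.62, adjusted p = 0.0331). ATP5MC2 had 159 and 145 FPKM against 203, 101 and 74.1 (-0.40, adjusted p = 0.544). ATP5MC3 had 90.7 and 87.7 against 105, 48.0 and 86.5 (-0.23, adjusted p = 0.647). Of the 3 genes for the c subunit, ATP5MC1 was thus the highest in both RiboMinus libraries and the lowest in each WT NAD-Capture library. The difference between these changes was not tested.

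ATP5F1B had 597 and 561 FPKM in RiboMinus and 273, 248 and 163 in WT NAD-Capture (-1.37, SE 0.27, adjusted p = 0.0208). It ranked first among the members in RiboMinus and 18th by mean in WT NAD-Capture. Its alpha partner ATP5F1A had 279 and 266 FPKM against 375, 502 and 334, which did not pass (0.54, adjusted p = 0.153), and ATP5F1C, the gamma subunit, had a log2 difference of -0.65 (adjusted p = 0.0687). The alpha and beta subunits stand in equal number in the enzyme, and their mRNAs had differences of opposite sign here, of which that of ATP5F1B alone passed. The difference between both genes was not tested. ATP5F1B hosts SNORD59A and SNORD59B.

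On the higher side, ATP5MK, a small membrane subunit, had 202 and 189 FPKM in RiboMinus and 938, 586 and 620 in WT NAD-Capture (1.83, SE 0.26, adjusted p = 0.00852). ATP5PF, the stalk subunit F6, had 104 and 107 FPKM against 415, 385 and 301 (1.78, SE 0.20, adjusted p = 0.00500). ATP5F1D, the delta subunit, had 28.3 and 33.3 against 69.1, 65.6 and 132 (1.43, adjusted p = 0.0389). None of the 3 had groups that overlapped. ATP5PF overlaps GABPA and ATP5MK overlaps TAF5, so without strand some reads cannot be assigned. ATP5MGL, a near copy of ATP5MG that is also counted as higher, was at 0 and 0.364 FPKM in RiboMinus. It was at 16.4, 19.0 and 56.6 in WT NAD-Capture (4.54). It met the filter only through the captured libraries, so its call is a description and no p is given. Its levels rest on an estimated 0 and 2 fragments in RiboMinus and 2, 2 and 8 in WT NAD-Capture, and the gene lies within the span of CYB5R3.

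In complex I, 6 of 37 members were higher and 2 lower. NDUFB1, a small membrane-arm subunit, had 120 and 111 FPKM in RiboMinus and 471, 836 and 522 in WT NAD-Capture (2.34, SE 0.29, adjusted p = 0.00610). NDUFA12, an accessory subunit of the peripheral arm, had 137 and 132 FPKM against 506, 372 and 316 (1.53, SE 0.25, adjusted p = 0.0119). The other higher members were NDUFS5 (1.51), NDUFB3 (1.02), NDUFV3 (0.91) and NDUFB8 (0.84), all accessory subunits. NDUFB11 had 68.1 and 69.8 FPKM in RiboMinus and 39.4, 26.1 and 33.6 in WT NAD-Capture (-1.06, SE 0.23, adjusted p = 0.0277), and overlaps RBM10. NDUFS3, a core subunit, had 96.8 and 81.0 against 46.0, 45.7 and 50.5 (-0.89, adjusted p = 0.0228).

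Of the 4 complex II members 0 passed in limma and 1 had an unadjusted p under 0.05, with log2 differences from -0.90 (SDHB) to -0.14 (SDHD). SDHB had 116 and 115 FPKM in RiboMinus and 74.7, 68.2 and 45.3 in WT NAD-Capture (adjusted p = 0.0605), so its groups did not overlap. A list of 20 members picked by role held 6 of the 11 lower calls and 0 of the 15 higher ones. Of these 20, 17 had a difference below 0, with a median of -0.62. Among the 62 other tested members, 15 were called higher and 5 lower, and the median was 0.03. The list holds the inhibitor ATP5IF1 and accessory subunits such as NDUFA9 and NDUFAB1, so it is not a list of core subunits. It leaves out the complex I core subunits NDUFS3 (-0.89), NDUFV2 (-0.40), NDUFS7 (0.45) and NDUFS8 (0.85). It was drawn up with earlier results of these data known, and no test was made of this split.

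**Figure D2:**
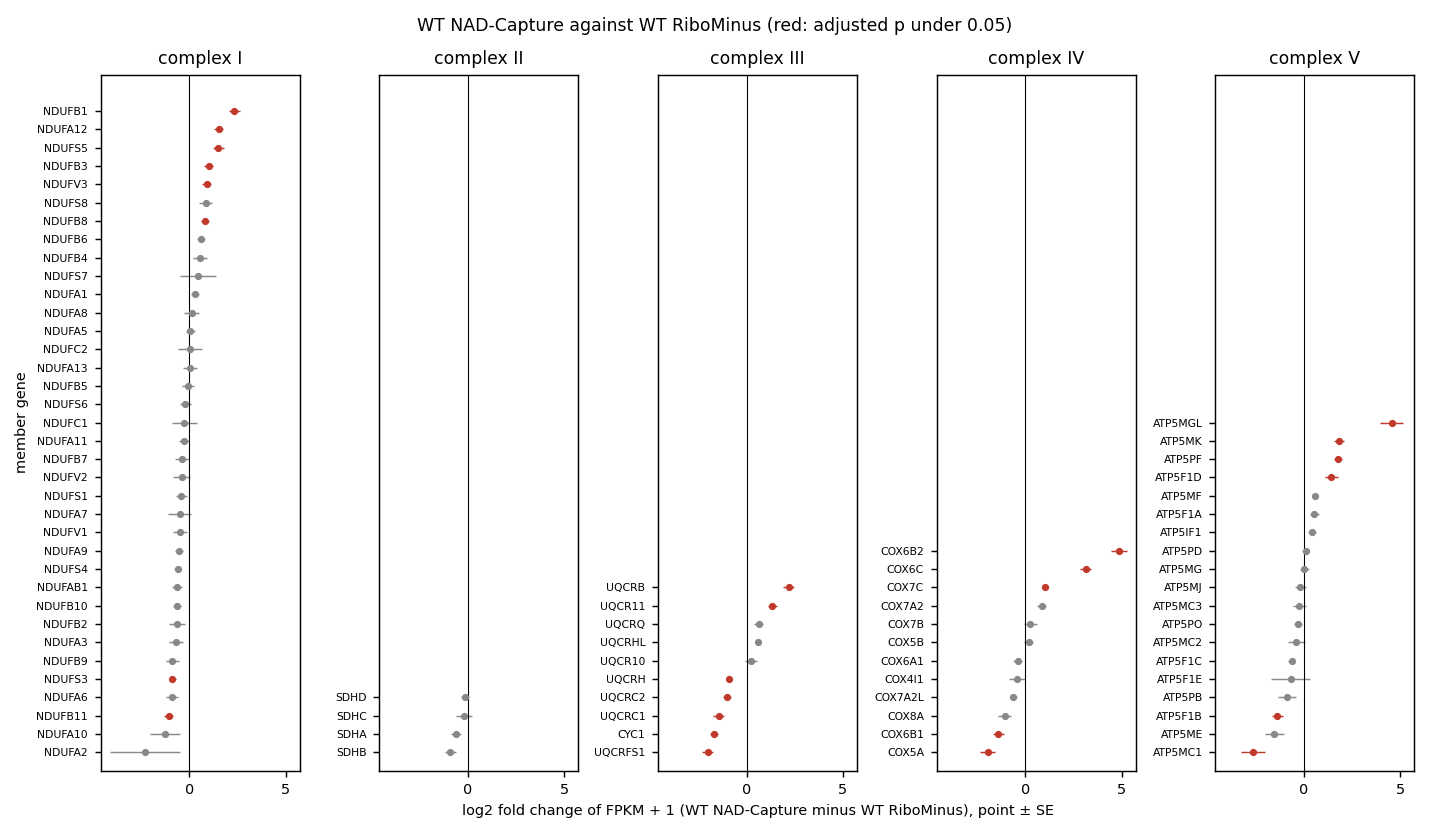
Log2 fold change of FPKM + 1 between WT NAD-Capture (3 libraries) and WT RiboMinus (2 libraries) on the horizontal axis, for 81 of the 82 tested members in 1 panel for each complex; points are fitted differences, bars the SE, and red marks an adjusted p under 0.05. Complex III has its red points at both ends (5 lower, 2 higher), complex II has none, and COX6B2 and ATP5MGL have the largest differences, from very low RiboMinus levels.

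The length of the transcript was set beside these differences. The Spearman coefficient between log2 difference and length was -0.16 over 81 members and -0.19 over 16455 tested genes; genes within these libraries are not independent and no p is given. The 24 members under 700 nt had 6 higher and 3 lower calls, the 28 of 700 to 1199 nt 5 and 1, and the 29 of 1200 nt or more 4 and 7. Shares over all genes by length class were not computed, so no length effect is read from these counts. Lengths came from paired GENCODE transcripts and are doubtful for some members, such as ATP5F1E (3665 nt) and NDUFA9 (8363 nt). For ATP5MC2 the length covered 2.58% of the RiboMinus level. The same pairing enters the estimated fragment numbers.

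Related gene lists gave other counts in the same comparison. Of 56 tested assembly factors of the complexes, 5 were higher and 5 lower (median -0.34). Of 14 enzymes of the tricarboxylic acid cycle, 0 were higher and 4 lower (median -0.91): IDH3A, DLST, FH and MDH2. Of 12 genes of electron carriers, which include cytochrome c and the coenzyme Q pathway, only COQ8A passed (lower, -1.13; list median -0.56). Of 15 tested regulators of mitochondrial biogenesis, POLRMT, the mitochondrial RNA polymerase, and ESRRA were higher, and TFAM, which packages mitochondrial DNA, and TFB2M lower. TFB2M was listed at 0 in all 3 WT NAD-Capture libraries against 16.9 and 15.6 FPKM, so it met the filter through RiboMinus alone. Mitochondrial ribosomal proteins had 1 higher and 10 lower calls of 77 (median -0.68), while cytoplasmic ribosomal proteins had 40 higher and 4 lower of 82 (median 1.04). The subunits' median of -0.24 thus lay between those of both ribosomal protein groups. COXFA4, known as NDUFA4 and outside the symbol rule, had 15.4 and 20.0 FPKM in RiboMinus and 8.35, 3.24 and 4.31 in WT NAD-Capture (-1.64, adjusted p = 0.0406).

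The libraries labelled DXO-KO were compared with WT NAD-Capture, the comparison in which RNAs that DXO strips of NAD would differ. Without a RiboMinus library of the cells labelled DXO-KO, a change in capture and one in mRNA level cannot be told apart. No member passed the test: 0 of 83 tested members had a limma adjusted p under 0.05 in either direction (0.0169% of 17759 genes were called higher and 0.0169% lower). An unadjusted p under 0.05 was reached by 7 members, 6 higher and 1 lower, or 8.43% of them, where 16.7% of all tested genes had one. The groups did not overlap for 8 members that were higher and 1 that was lower in DXO-KO-labelled capture (9.64% and 1.20%, where 11.8% and 11.5% of all genes did not overlap). The log2 difference was above 0 for 56 members and below 0 for 27, and its median was 0.26 against -0.02 over all tested genes. Among genes with a mean of at least 10 FPKM it was 0.27 over the members and 0.27 over all 7079 genes. With quantile normalization the members' median was -0.04, and without replicate 1 labelled DXO-KO it was 0.52, so neither its sign nor its size was stable.

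ATP5ME had the lowest unadjusted p of the members. It stood at 64.8, 168 and 185 FPKM in WT NAD-Capture and at 311, 264 and 315 in DXO-KO-labelled capture (1.22, SE 0.42, adjusted p = 0.217). All 3 libraries labelled DXO-KO lay above the 3 WT ones, but below its RiboMinus level of 386 and 357. SDHC had 19.7, 7.29 and 13.7 FPKM in WT NAD-Capture and 25.9, 25.6 and 29.9 in DXO-KO-labelled capture (1.04, SE 0.41, adjusted p = 0.266). The other members with an unadjusted p under 0.05, named after their values were seen, were COX7A2L (0.90), NDUFA3 (0.91), NDUFS3 (0.68) and NDUFB7 (0.94) on the higher side and ATP5MGL (-2.51), which was listed at 0 in replicate 3, on the lower.

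By complex, the median log2 difference was 0.18 for complex I, -0.18 for complex II, 0.26 for complex III, 0.60 for complex IV and 0.26 for ATP synthase. These medians followed single libraries. Against each gene's WT NAD-Capture mean, the median of complex IV was -0.04 in replicate 1 labelled DXO-KO, 0.72 in replicate 2 and 1.15 in replicate 3. For ATP synthase it was -0.17, 0.57 and 0.44. Over all 83 members it was -0.06, 0.46 and 0.53, and 35, 63 and 63 members lay above 0.

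The summed level of the members showed the same spread, at 10647, 18450 and 24275 FPKM in replicates 1, 2 and 3 labelled DXO-KO, against 12332 to 14618 in WT NAD-Capture. The summed FPKM of all transcripts with an mRNA accession had the same order, at 313346, 536523 and 667377. As a share of that sum the members held 3.40%, 3.44% and 3.64% in the libraries labelled DXO-KO, against 2.67% to 3.05% in the WT captured libraries; the RiboMinus shares were 3.39% and 3.34%. On this scale the replicates labelled DXO-KO lay close together and above each WT NAD-Capture library. COX7B had 691, 657 and 342 FPKM in WT NAD-Capture and 331, 1154 and 2151 in DXO-KO-labelled capture, so that replicate 1 lay below and replicate 3 far above every WT library. COX6C had 419, 1201 and 1930 FPKM there, ATP5MK 285, 782 and 1667, and COX7C 353, 891 and 1683. In each of these genes the order of the libraries was that of their estimated depth, from the deepest, replicate 1, to the shallowest, replicate 3. Whether depth has a part in this was not tested.

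**Figure D3:**
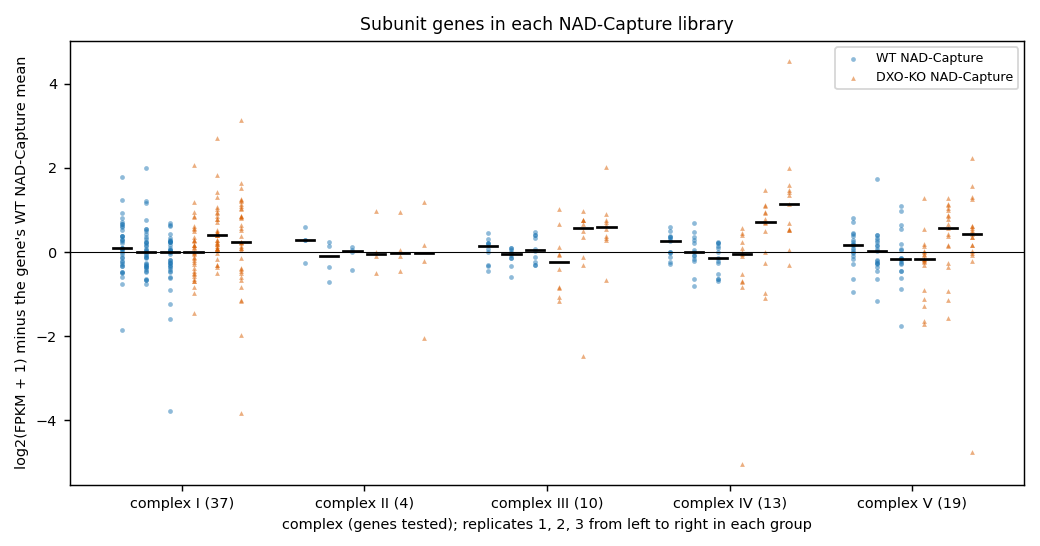
Level of the 83 tested members in each NAD-Capture library, as log2(FPKM + 1) minus the gene's mean over the 3 WT NAD-Capture libraries on the vertical axis, by complex; each point is a gene, black bars are medians, and within each group replicates 1 to 3 stand from left to right. Replicate 1 labelled DXO-KO has medians near or below 0 in each complex, while replicates 2 and 3 have medians above 0 in complexes I, III, IV and V.

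The other pathway lists had 0 genes past the threshold here by limma as well, with 6 assembly factors, 1 tricarboxylic acid cycle enzyme, 7 mitochondrial and 4 cytoplasmic ribosomal proteins at an unadjusted p under 0.05. The median log2 difference was 0.02 over 57 assembly factors, 0.01 over 14 tricarboxylic acid cycle enzymes, 0.13 over 77 mitochondrial ribosomal proteins and 0.31 over 82 tested cytoplasmic ribosomal proteins. COXFA4 had 18.0, 11.6 and 20.1 FPKM in the libraries labelled DXO-KO, all above the 3 WT NAD-Capture values (1.53, adjusted p = 0.191).

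The libraries labelled DXO-KO were also set against WT RiboMinus, which shares its control libraries with the capture comparison above. The label of the cells, the capture and the library kit all differ here, so their effects cannot be told apart. Of 83 tested members, 4 passed, 2 higher (2.41%, where 2.46% of all tested genes were called higher) and 2 lower (2.41%, where 0.849% were called lower). The median log2 difference was 0.23 over the members and 0.20 over all tested genes. The members' median was 0.47 without replicate 1 labelled DXO-KO and 0.07 without replicate 2, where that of all genes was 0.26 and 0.16. ATP5F1D stood at 96.5, 152 and 94.4 FPKM (1.83, SE 0.30, adjusted p = 0.0432) and UQCR11 at 119, 112 and 154 (1.39, SE 0.25, adjusted p = 0.0496). ATP5MC1 stood at 17.4, 17.1 and 28.3 (-3.33, SE 0.30, adjusted p = 0.0158) and SDHB at 43.1, 44.4 and 52.9 (-1.29, SE 0.22, adjusted p = 0.0470). Their RiboMinus levels are given above, and for none of the 4 genes did the groups overlap. The count was 0 without either RiboMinus replicate (10 and 12 at an unadjusted p under 0.05) or without replicate 2 labelled DXO-KO (20 at an unadjusted p under 0.05), where 5, 2 and 1 genes were called in all. It was 14 of 83 without replicate 1, where 1210 of 14616 genes were called, and 12 of 82 without replicate 3, where 1513 of 14637 were. With quantile normalization it was 17 of 83, where 810 of 15071 genes were called, and the members' median was then -0.28.

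Several members called in WT NAD-Capture did not pass here. COX6C had a log2 difference of 3.65 with an SE of 0.66 (adjusted p = 0.0514), and UQCRFS1 one of -1.33 with an SE of 0.24 (adjusted p = 0.0507). CYC1 had 19.8, 6.80 and 72.5 FPKM, below both RiboMinus libraries but far apart (-2.62, SE 0.90, adjusted p = 0.178). COX6B2 was listed at 0 in replicate 1 labelled DXO-KO, the deepest of the captured libraries, and had 14.7 and 25.5 FPKM in the others.

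At the level of transcripts, 39 member genes had 2 or more RefSeq transcripts, 122 in all. The leading transcript was the same in the means of all 3 groups for 29 genes and the same in each of the 8 libraries for 13. Of the 122 transcripts, 26 and 24 were listed at 0 in the RiboMinus libraries, 59 to 61 in WT NAD-Capture and 52, 60 and 65 in DXO-KO-labelled capture. More transcripts of the same genes were thus listed at 0 in the shallower libraries, and transcript values are less certain than gene sums.

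Between WT NAD-Capture and RiboMinus, 18 of 129 tested member transcripts were higher (14.0%, where 12.6% of all tested transcripts were called higher) and 21 lower (16.3%, where 13.1% were). Of the 21 lower transcripts 12 had a mean under 1 FPKM in WT NAD-Capture, and 3 of the 18 higher ones had one in RiboMinus. These met the filter through 1 group only, so their calls are a description. Over all tested transcripts this held for 2585 of the 3244 lower and 2243 of the 3119 higher ones. Without RiboMinus replicate 1 or 2 the calls numbered 15 and 19. ATP5F1C had the largest drop. Its transcript NM_001001973 had 229 and 215 FPKM in RiboMinus and 0.00264, 0.00264 and 0.00277 in WT NAD-Capture, below the value of a fragment (-7.80), while its other transcript, NM_005174, had 9.80 and 9.27 FPKM against 144, 174 and 128 (3.82, SE 0.20, adjusted p = 0.00218). The sum over both was 239 and 224 FPKM against 144, 174 and 128, so most of the transcript difference was a swap within the gene. In replicate 1 labelled DXO-KO the first transcript again led, with 138 FPKM and 91.7% of the gene.

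NDUFA12 showed a swap that was partial. NM_001258338 had 11.7 and 11.8 FPKM in RiboMinus and 382, 301 and 316 in WT NAD-Capture (4.70, SE 0.17), and NM_018838, the leading transcript in RiboMinus with 125 and 120 FPKM, had 124, 71.0 and 0. Here the gene sum was higher too. In SDHD, NM_001276504 led RiboMinus with 29.8 and 31.2 FPKM and was at or near 0 in all 6 captured libraries, where NM_001276503 held the gene's level at 43.5, 61.7 and 52.2 FPKM in WT NAD-Capture against 22.3 and 25.3 in RiboMinus. The other large drops were of NDUFC1 NM_001184987 (-5.71), ATP5MF NM_001003714 (-5.43), NDUFB8 NM_001284368 (-5.01) and ATP5MF NM_001039178 (-5.01). These transcripts, ATP5F1C NM_001001973 and SDHD NM_001276504 are all among those with a mean under 1 FPKM in WT NAD-Capture, so their calls are a description. The gene sums of NDUFC1 and ATP5MF did not pass and that of NDUFB8 was higher. Among the other higher transcripts were COX6C, COX6B2 and ATP5MGL, which have 1 transcript each, and NDUFA11 NM_001193375 (3.02). Those of COX6B2, ATP5MGL and NDUFA11 had a RiboMinus mean under 1 FPKM, so their calls are a description.

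**Figure D4:**
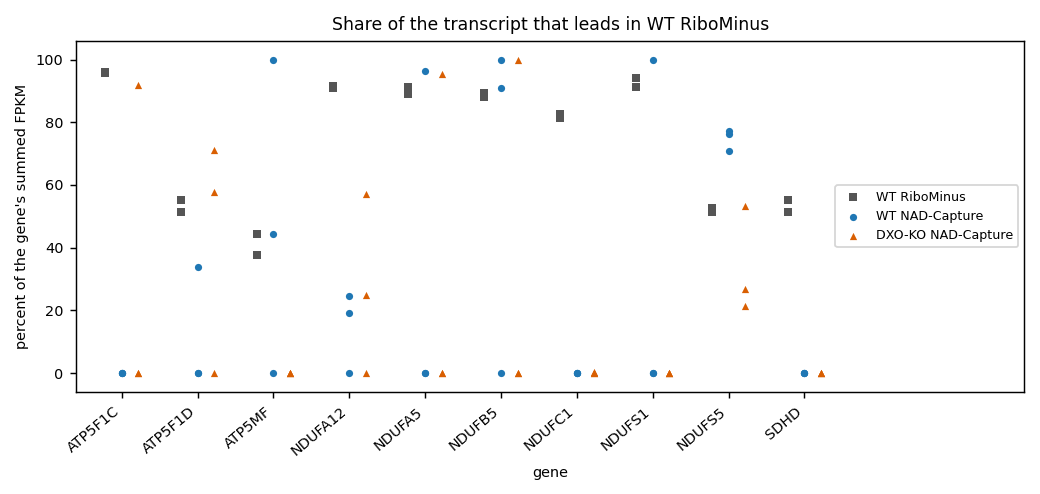
Share of a gene's summed FPKM held by the transcript that leads in WT RiboMinus, in percent on the vertical axis, for the 10 genes whose leading transcript differed between group means; each point is a library. Shares in the 2 RiboMinus libraries lie close together in each gene, while captured libraries of the same group lie near 0 and near 100% for NDUFA5, NDUFB5 and NDUFS1.

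NDUFS1 shows how far libraries of the same group parted. Its transcript NM_005006 held 91.3% and 94.2% of the gene in RiboMinus, nearly all of it in WT NAD-Capture replicate 1 and under 0.01% in the other 5 captured libraries, where the gene sum was 19.5 to 43.4 FPKM. In NDUFS5, NM_001184979 held 51.5% and 52.8% in RiboMinus, 70.8% to 77.2% in WT NAD-Capture and 53.3%, 21.3% and 26.7% in DXO-KO-labelled capture. Between the capture groups, 0 of 125 tested member transcripts passed in limma and 7 had an unadjusted p under 0.05 (0.024% of all tested transcripts were called higher and 0.008% lower). NDUFS5 NM_001184979 had a log2 difference of -1.05 and NM_004552 one of 1.57 between them, with adjusted p of 0.513 and 0.523. Between the libraries labelled DXO-KO and RiboMinus, 5 of 132 tested member transcripts were higher (3.79%, where 4.41% of all were) and 19 lower (14.4%, where 9.63% were). Of these 19, 16 had a mean under 1 FPKM in the libraries labelled DXO-KO, as had 2002 of the 2159 lower transcripts overall. Leaving out replicate 1 labelled DXO-KO gave 51 calls in place of 24, leaving out replicate 2 gave 13, and leaving out either RiboMinus replicate gave 12 and 14. Over all transcripts the calls were 3148 in the main fit, 6530 without replicate 1 labelled DXO-KO and 2276 without replicate 2. The largest drop against RiboMinus was of ATP5MF NM_004889. It was at 112 and 120 FPKM in RiboMinus and at 0 in all 3 libraries labelled DXO-KO, while ATP5MF NM_001003713 was higher (2.27, adjusted p = 0.0212). NDUFC1 NM_001184987 (-5.64), NDUFS1 NM_005006 (-5.48), ATP5MF NM_001003714 (-5.43) and ATP5MF NM_001039178 (-5.01) were also lower, as was SDHB with a smaller change. NDUFA12 NM_001258338 (4.57), COX6C (3.65) and ATP5PF NM_001003697 (3.02) were higher. The transcripts of ATP5MF, NDUFC1 and NDUFS1 named as lower are among the 16 that met the filter through RiboMinus only. Their calls are a description.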

How the data were processed

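RNA of 2 WT RiboMinus, 3 WT NAD-Capture and 3 NAD-Capture libraries labelled DXO-KO was used. The authors deposited FPKM values for each RefSeq transcript and library; per the submitters' processing notes, TopHat2 2.1.1, Bowtie2 2.2.8.0, Cuffdiff and build hg19 were used, with no role or order given. Strand handling, annotation version and scaling between libraries are not given in the sources used here. At 1 kb, 1 fragment was worth an estimated 0.094 and 0.115 FPKM in RiboMinus and 4.03 to 6.06 in WT NAD-Capture. It was worth 1.24, 7.27 and 12.4 FPKM in replicates 1, 2 and 3 labelled DXO-KO. Values well below these, and not only those under 0.01 FPKM, are estimates below 1 fragment. In captured libraries the filter of 1 FPKM thus lies below the value of 1 fragment at that length.

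Transcripts were paired with symbols through RefSeq accessions and, where those failed, GENCODE release 29 (52667 of 53216 paired), and FPKM was summed for each symbol, including 12 non-coding transcripts of members that the first plan had left out. Groups were compared with limma 3.58.1 in R 4.3.3 (eBayes with trend, two-sided) on log2(FPKM + 1), so fold changes of low genes are understated. Genes or transcripts with a mean of at least 1 FPKM in the libraries compared were tested, with Benjamini-Hochberg adjustment over all of them and a threshold of 0.05. Only the compared groups entered a fit. The script was tested on simulated data.

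Depth was estimated from transcripts of 1500 to 6000 nt that are alone for their symbol. The product of FPKM and length (less 200 nt) fell on multiples of a step, the value of 1 fragment. Of the low values, 70.4% to 73.0% were within 4% of such a multiple, too few for a count test. Fragment numbers are therefore estimates. Python 3.11.15, pandas 2.3.3, numpy 2.4.6 and scipy 1.17.1 were used.

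Genes named are all called members, the 8 highest in RiboMinus, 20 members listed by role, paralog pairs and DXO. For each comparison with RiboMinus, called transcripts from among those that changed most each way are named too. Others are said to be chosen after their values were seen. A member that these rules would name is counted in all totals but not reported here. Members, lists and rules were chosen with earlier results of these data known. Alternatives were a pseudocount of 0.1, no filter, a mean of at least 10 FPKM, centring on the median, quantile normalization, 1 fit over all 8 libraries, a block for the replicate number and leaving out each library.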

Additional observations from a re-analysis of the deposited data

How the results depend on the processing

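All members called in either comparison with RiboMinus kept their direction under every alternative run, and no member was called between the capture groups under any of them, for gene sums or transcripts. Against RiboMinus, the 26 calls in WT NAD-Capture became 17 with all 8 libraries in a common fit, and 0 to 31 when a library was left out. Over all 17016 tested genes the calls were 4210 in the main fit and 2644 in the common fit. The members' median of -0.24 became -0.72 with centring and ranged from -0.35 to -0.12 when a library was left out. The 4 calls in the libraries labelled DXO-KO became 1 with no filter, 7 with a mean of at least 10 FPKM, 8 with centring, 17 with quantile normalization, 9 in the common fit and 0 to 14 when a library was left out. Over all 15071 tested genes the calls were 498 in the main fit, 698 with centring, 810 with quantile normalization and 877 in the common fit. They were 78 of 20574 genes with no filter and 611 of 6990 with a mean of at least 10 FPKM. The members' median of 0.23 became -0.28 with quantile normalization and -0.01 with centring. Between the capture groups the median of 0.26 became -0.042 with quantile normalization and ranged from 0.17 to 0.52 when a library was left out. Of 39 transcripts called in WT NAD-Capture against RiboMinus, the common fit left 23, and leaving out a library gave 15 to 52. Of 24 called in the libraries labelled DXO-KO, a mean of at least 10 FPKM gave 13, the common fit 14 and leaving out a library 12 to 51. Over all transcripts the calls in WT NAD-Capture were 6363 in the main fit and 3962 in the common fit. For the libraries labelled DXO-KO they were 3148 in the main fit and 2591 in the common fit. With a mean of at least 10 FPKM they were 647 of 6893 transcripts. The causes were not tested. Among members not called in WT NAD-Capture, 12 of 56 changed sign with centring and 12 with quantile normalization.

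Same-numbered libraries did not deviate together (correlations of -0.06 to 0.03), so the labels give shared numbers only. With the replicate number as a block, 0 genes and 0 transcripts of the members were called in either comparison with RiboMinus, where only replicates 1 and 2 form pairs (36 and 20 genes at an unadjusted p under 0.05), and the median in WT NAD-Capture was -0.12. Over all tested genes and transcripts the block called 0 as well in both comparisons with RiboMinus. A typical member rests on 9 to 44 fragments in the captured libraries, which limits the precision of its level there. Between the capture groups the common fit called 439 genes and 0 members (10 members at an unadjusted p under 0.05).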
